A study of Mus musculus with 18 samples.

Results

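The genes of the beta-catenin destruction complex and the Tle corepressors were examined in mouse cells on their way to, or settled as, induced pluripotent stem cells (iPSC). The members were all probe sets that the array annotation gives to Ctnnb1, Apc, Axin1, Gsk3a, Gsk3b, Csnk1a1, Tle1, Tle2, Tle3 and Tle4. They came to 31 of the 40508 probe sets on the array and to 10 of its 17903 genes. Each of the 18 samples had its RNA read on an Affymetrix mouse array. OCK names the factor set Oct4, c-Myc and Klf4, and OSK names Oct4, Sox2 and Klf4. A partial OCK iPSC clone, labelled wild type (wt) for Tcf3, received 1 of 2 independent Tcf3 siRNAs (A and B, 1 array each) or a control siRNA (1 array) and was collected at day 2. The established clones were 2 OCK Tcf3 knockout (ko) clones, 2 OSK ko clones and 1 OSK wt clone, with 1 array each. The design text gives 2 cell lines as the origin of each pair of ko clones. Cultures under OCK reprogramming, ko and wt, gave 1 array each on days 11, 15, 19, 22 and 26. Tcf3 is the older name of Tcf7l1.

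Beta-catenin, the product of Ctnnb1, carries the Wnt signal to the nucleus and also ties cadherins to the cytoskeleton. Without Wnt, the scaffolds Apc and Axin1 hold it beside the kinases Csnk1a1, Gsk3a and Gsk3b, whose phosphorylation marks it for destruction. The Tle proteins, the mammalian Groucho family, are corepressors that sit on Tcf/Lef factors until beta-catenin displaces them. In mouse ES cells Tcf7l1 is the main repressor of this kind, and Gsk3 inhibition is widely used to keep such cells undifferentiated. The question put to these genes was whether their own RNA moved with reprogramming stage, with Tcf3 loss or with the factor set.

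All values are log2 RMA signals, and the lowest possible value, 5.64, is a floor that stands for any lower level. Of the 31 probe sets, 29 were above the floor on at least 1 array and 26 on every array. A probe set of Apc (1420957_at) and one of Csnk1a1 (1451497_at) were at the floor on all 18 arrays. The brightest probe set stood for its gene, and the others were fitted on their own. No label states that any clone, siRNA or culture day was repeated in a separate culture. The p-values therefore cover spread between arrays that differ by clone, siRNA, genotype or day, and not between repeats of any of these. The 3 arrays of the partial clone are 1 clone, and the OSK wt and control siRNA groups are single arrays that were assumed to vary like the others. Tcf7l1 itself was at 8.80 and 8.77 after Tcf3 siRNA against 9.93 after control siRNA, and at 9.49 and 9.37 in the OSK ko clones against 10.68 in the OSK wt clone. It was at 9.45 and 9.56 in the OCK ko clones. In the cultures it was lower in ko than in wt on all 5 days. The position of its probes relative to the deleted part was not known here.

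The groups differ in their cells. The summed signal (linear scale) of 7 pluripotent markers was 9210 to 9919 on the partial arrays, 48517 to 59624 in the established clones, and 1689 to 2663 in the cultures of days 11 and 15. That of 7 fibroblast markers was 9371 to 12281 on the partial arrays, 882 to 3301 in the established clones, and 90862 to 94257 in the cultures of days 11 and 15. Zfp42 and Esrrb were at the floor in all 5 wt cultures, and at least 5 of the 7 fibroblast markers were above the floor in every established clone. On day 26 neuronal markers summed to 430 in the ko culture and 6071 in the wt culture, and trophoblast markers to 1569 in the ko culture and 442 in the wt culture. These sums moved with every stage comparison given here, and their part in the results was not tested. In bulk RNA, fewer cells of a type and less RNA per cell cannot be told apart.

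The start regions of the genes with the clearest stage differences are shown first because Tcf/Lef factors read the core CTTTGA in DNA. Sequences of 300 bases (250 before and 50 after the start site, 5′ to 3′) were taken from RefSeq, assembly GRCm38.p6. Windows were examined for 7 of the 10 genes, with 9 start sites. None was examined for Apc, Axin1 and Csnk1a1, so their start regions are not described here. Capitals mark CTTTGA as read on the other strand (TCAAAG).
Tle4, chr19:14598134-14598433, minus strand: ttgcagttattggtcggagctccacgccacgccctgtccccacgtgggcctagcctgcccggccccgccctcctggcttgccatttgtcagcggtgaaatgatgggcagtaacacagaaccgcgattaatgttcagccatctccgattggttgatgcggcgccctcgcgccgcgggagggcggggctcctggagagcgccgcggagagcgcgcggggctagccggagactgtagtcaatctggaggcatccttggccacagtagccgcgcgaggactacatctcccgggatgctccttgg
Tle2, chr10:81575037-81575336, plus strand: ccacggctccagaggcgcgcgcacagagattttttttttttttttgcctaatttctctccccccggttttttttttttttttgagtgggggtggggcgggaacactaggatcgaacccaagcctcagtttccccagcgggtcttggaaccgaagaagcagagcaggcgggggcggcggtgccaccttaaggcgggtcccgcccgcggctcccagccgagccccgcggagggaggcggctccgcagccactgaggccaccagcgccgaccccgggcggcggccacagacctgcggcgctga
Tle1, chr4:72200844-72201143, minus strand: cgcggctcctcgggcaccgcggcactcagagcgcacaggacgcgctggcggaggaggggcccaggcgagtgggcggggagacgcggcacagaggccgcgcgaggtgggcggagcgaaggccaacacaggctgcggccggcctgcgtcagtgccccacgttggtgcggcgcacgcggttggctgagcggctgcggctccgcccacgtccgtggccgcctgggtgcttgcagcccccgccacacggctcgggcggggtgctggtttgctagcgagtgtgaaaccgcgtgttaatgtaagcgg
Gsk3b, chr16:38088751-38089050, plus strand: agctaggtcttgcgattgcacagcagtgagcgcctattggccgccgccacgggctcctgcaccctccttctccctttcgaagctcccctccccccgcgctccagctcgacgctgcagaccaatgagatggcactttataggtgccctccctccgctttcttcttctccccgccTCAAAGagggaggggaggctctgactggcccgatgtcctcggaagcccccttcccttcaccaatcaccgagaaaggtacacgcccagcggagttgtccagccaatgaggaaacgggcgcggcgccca
CTTTGA, searched on both strands, was found in 2 of the 9 windows, those of Gsk3b and Gsk3a. In 16% of all 32851 promoters of that length the same letters occur. The match in Gsk3b lies in the capitals above, 77 bases before its start. The Gsk3a window (chr7:25237802-25238101, minus strand) holds it 157 bases before the start, as follows.
Gsk3a: tgtgttttTCAAAGtgcttcca
There the letters continue to CTTTGAA, which 5.14% of all promoters hold and which contains CTTTGA. None of the 9 windows held CTTTGAT, which 3.73% of all promoters hold. All 9 windows were rich in CG pairs, with 14 to 51 each against a median of 7 over all promoters. A match is only a run of letters, and its absence says nothing of binding.

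Across stages the 10 genes split into 3 kinds of behaviour. Tle4, Tle1, Apc, Axin1 and Gsk3a were higher in established clones than in early cultures. Gsk3b and Tle2 were lower there, and Ctnnb1, Csnk1a1 and Tle3 passed the threshold in neither direction on their brightest probe sets. Thus 7 of 10 passed (5 higher, 2 lower), where 73.3% of all 13814 genes tested did (40.6% higher, 32.7% lower), so the share is near the background. Between the partial clone and the established clones 3 of 10 passed (Gsk3b higher, Apc and Tle1 lower in the partial clone), against 58.2% of all genes (24.7% higher, 33.5% lower). Over the days of the cultures 2 of 10 rose (Tle4 and Tle1) and 0 fell, against 36.6% of all genes (18% rising, 18.7% falling). The plot of the 10 genes by array shows these levels.

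**Figure D1:**
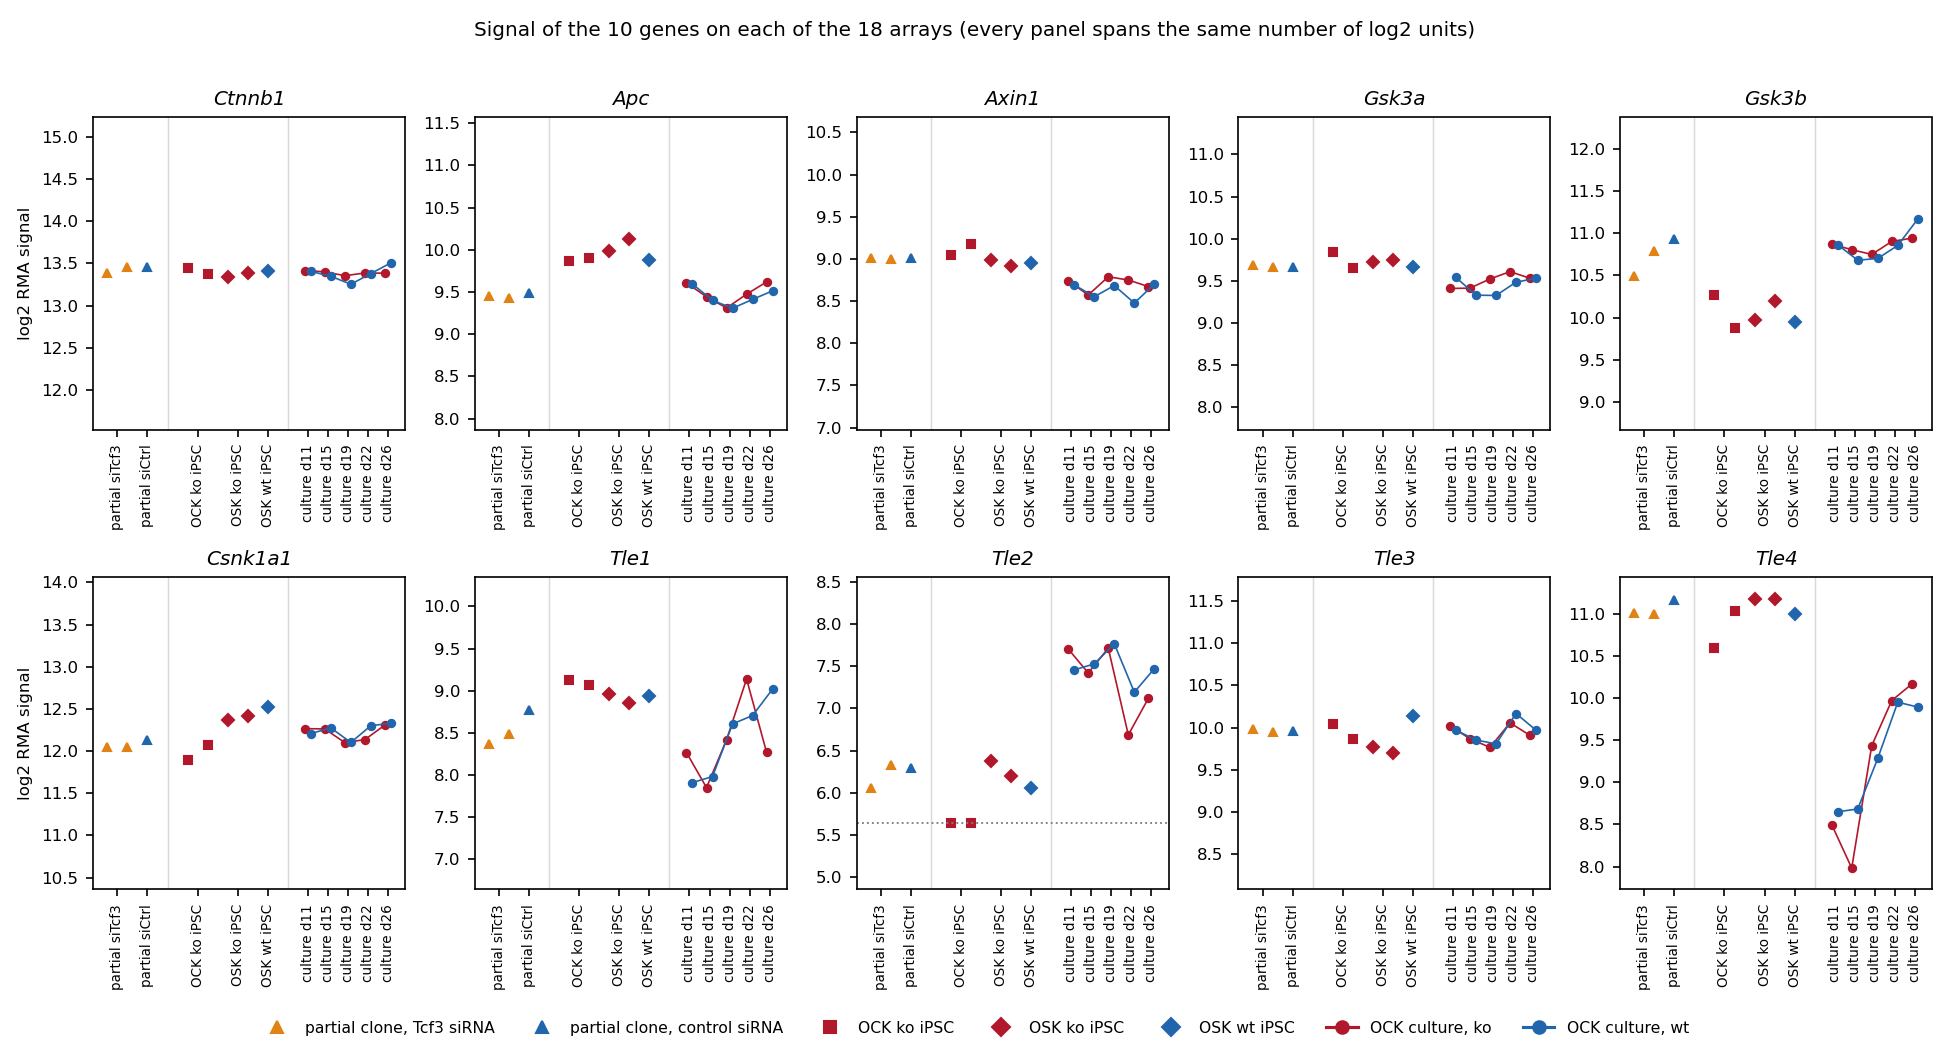
Log2 RMA signal of the brightest probe set of each gene, by array. The x axis holds the partial clone (Tcf3 siRNA, then control siRNA), the OCK ko, OSK ko and OSK wt clones, and the OCK cultures of days 11 to 26 with ko and wt as separate lines. Every panel spans an equal number of log2 units and the dotted line is the floor of 5.64. Ctnnb1 stays between 13.25 and 13.51, while Tle4 spans 3.19 units.

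Ctnnb1 differed between stages on some of its probe sets and not on the brightest. The brightest, 1420811_a_at, was at 13.39, 13.46 and 13.46 on the partial arrays with siRNA A, siRNA B and control siRNA. It was at 13.44 and 13.38 in the OCK ko clones, 13.34 and 13.39 in the OSK ko clones and 13.41 in the OSK wt clone. In the cultures of days 11 to 26 it was at 13.42, 13.40, 13.35, 13.39 and 13.39 in ko and at 13.41, 13.35, 13.25, 13.38 and 13.51 in wt. All groups overlapped, and the range over 18 arrays, 0.25, was the smallest of the 10 genes. Its level lay above 99.7% of values, and whether signals that high still follow the RNA level was not tested. The established clones differed from the cultures of days 11 and 15 by 0.00 ± 0.06 (SE, 95% interval -0.13 to 0.13).

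The other Ctnnb1 probe sets did differ. Probe set 1430533_a_at was at 9.64 and 9.30 in the OCK ko clones, 9.45 and 9.41 in the OSK ko clones and 9.47 in the OSK wt clone, against 8.14 and 8.12 in ko and 8.24 and 8.05 in wt cultures of days 11 and 15. Every established clone lay above every early culture. The difference was 1.32 ± 0.08 (adjusted p = 1.16e-07), and for 1450008_a_at it was 0.47 ± 0.07 (adjusted p = 0.000114). The same 2 probe sets were lower in the partial clone than in the established clones, by -1.13 ± 0.13 (adjusted p = 6.27e-05) and -0.40 ± 0.09 (adjusted p = 0.00418). Both comparisons share the 5 established clones. Averaging the 3 probe sets would therefore call Ctnnb1 higher in established clones than in early cultures (0.60) and lower in the partial clone (-0.50). The transcripts that each probe set reads were not known here.

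**Figure D2:**
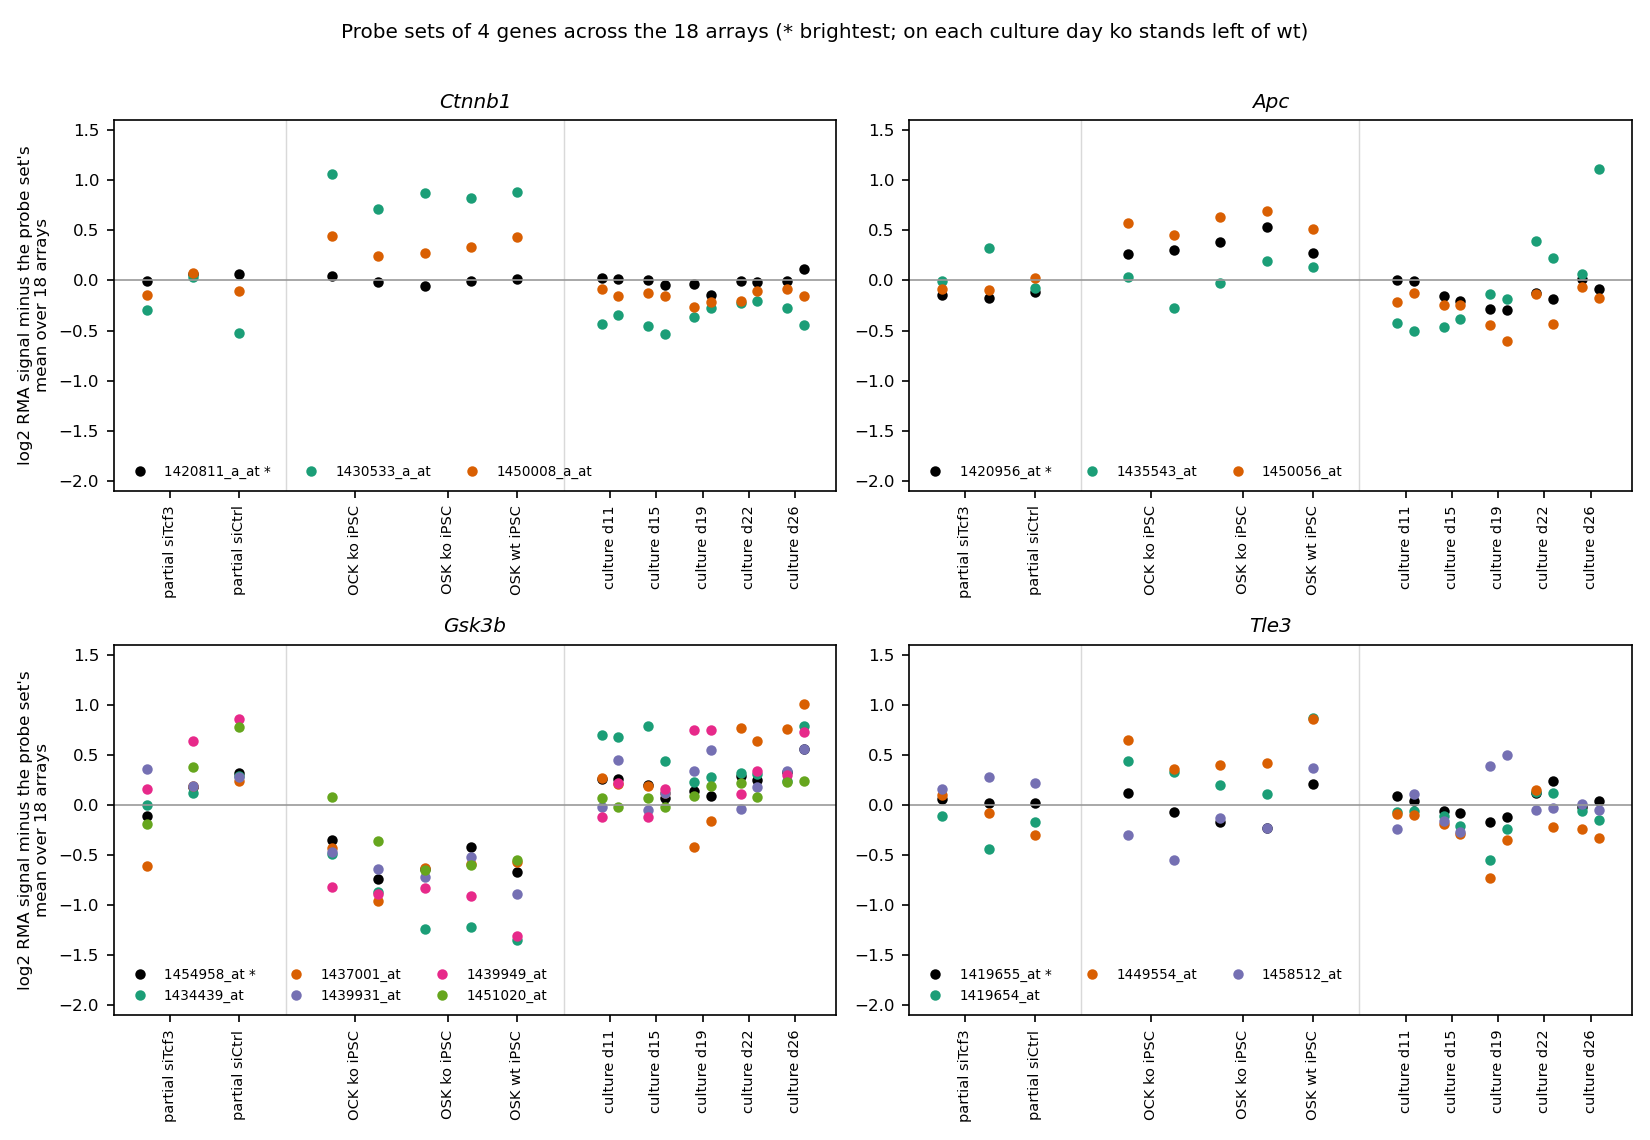
Probe sets above the floor for Ctnnb1, Apc, Gsk3b and Tle3, each minus its own mean over the 18 arrays (log2 units). The x axis runs from the partial clone through the established clones to the cultures by day, with ko left of wt. In the established clones all 6 Gsk3b probe sets lie low except 1451020_at in OCK ko clone 1, while the Ctnnb1, Apc and Tle3 probe sets spread apart.

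Apc, the large scaffold that binds beta-catenin, was at 9.46, 9.42 and 9.49 on the partial arrays with siRNA A, siRNA B and control siRNA. It was at 9.86 and 9.91 in the OCK ko clones, 9.98 and 10.13 in the OSK ko clones and 9.88 in the OSK wt clone. In the cultures it was at 9.61, 9.44, 9.31, 9.47 and 9.62 in ko and at 9.59, 9.40, 9.31, 9.41 and 9.51 in wt. Thus every established clone was above all partial arrays and all cultures. The established clones were 0.44 ± 0.08 above the early cultures (1.36-fold, adjusted p = 0.000572), and the partial clone differed from them by -0.50 ± 0.09 (adjusted p = 0.000804). Between the 2 OCK ko clones and the ko cultures of days 11 and 15 alone, which share factor set and genotype, the difference was 0.36 ± 0.13 and missed the threshold (adjusted p = 0.0528).

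A further Apc probe set, 1450056_at, behaved alike, with differences of 0.78 ± 0.07 (adjusted p = 2.89e-06) between established clones and early cultures and -0.63 ± 0.09 (adjusted p = 0.000191) between the partial and the established clones. Probe set 1435543_at did not follow in the partial clone (0.07 ± 0.13). Instead it rose over the culture days by 0.076 ± 0.015 per day (adjusted p = 0.00940, fit of every probe set). It was at 8.90, 8.86, 9.19, 9.72 and 9.39 in ko and at 8.82, 8.95, 9.14, 9.55 and 10.44 in wt. Its highest value was that of the wt culture of day 26, the array on which the neuronal markers summed to 6071, and their part in it was not tested. Without day 26 the slope was 0.068 ± 0.015 per day (adjusted p = 0.0182), and without day 11 it was 0.097 ± 0.021 and missed the threshold (adjusted p = 0.0959). In the fit by gene without day 11, 0 of all 13374 genes passed. The slope fit takes the ko and wt arrays of a day as separate. A line through the 5 day means, in which 424 of 13428 genes passed, was not fitted for this probe set. With all days in the fit of every probe set, the brightest Apc probe set changed by -0.0019 ± 0.0093 per day.

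Axin1, the scaffold that limits assembly of the complex, was at 9.05 and 9.18 in the OCK ko clones, 8.98 and 8.91 in the OSK ko clones and 8.96 in the OSK wt clone. The cultures of days 11 and 15 were at 8.74 and 8.57 in ko and 8.69 and 8.55 in wt, with no overlap. The difference was 0.38 ± 0.08 (1.30-fold, adjusted p = 0.00129), and 0.51 ± 0.13 on the other probe set (adjusted p = 0.00586). The partial clone, at 9.01, 8.99 and 9.01 with siRNA A, siRNA B and control siRNA, stood among the established clones (difference -0.01 ± 0.08). In the cultures the change per day was 0.000 ± 0.008.

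The Gsk3 kinases went opposite ways. Gsk3a was at 9.85 and 9.66 in the OCK ko clones, 9.73 and 9.75 in the OSK ko clones and 9.67 in the OSK wt clone, against 9.41 and 9.41 in ko and 9.54 and 9.33 in wt cultures of days 11 and 15. It was 0.31 ± 0.07 higher in the established clones (1.24-fold, adjusted p = 0.00283), with no overlap. The partial clone, at 9.66 to 9.69, differed from the established clones by -0.06 ± 0.08. With OCK ko clones and ko cultures alone the difference of Gsk3a was 0.34 ± 0.13 and missed the threshold (adjusted p = 0.0670).

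Gsk3b was at 10.50, 10.79 and 10.93 on the partial arrays with siRNA A, siRNA B and control siRNA. It was at 10.26 and 9.88 in the OCK ko clones, 9.97 and 10.19 in the OSK ko clones and 9.94 in the OSK wt clone. The cultures were at 10.87, 10.81, 10.75, 10.90 and 10.94 in ko and at 10.86, 10.68, 10.70, 10.86 and 11.17 in wt. Every established clone was below all other arrays. Established clones were thus -0.76 ± 0.10 relative to early cultures (1.69-fold lower, adjusted p = 3.30e-05), and the partial clone was 0.69 ± 0.13 above the established clones (1.61-fold, adjusted p = 0.00138). All 6 Gsk3b probe sets passed in both comparisons and in these directions, from -1.68 to -0.44 in the first and from 0.57 to 1.502 in the second. The comparisons share the established clones. The difference held at -0.77 ± 0.17 (adjusted p = 0.00902) between OCK ko clones and ko cultures alone.

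Csnk1a1, which phosphorylates beta-catenin before Gsk3 does, passed in neither stage comparison on its brightest probe set (0.00 ± 0.12 between established clones and early cultures). Its OCK ko clones, at 11.89 and 12.08, instead lay below its OSK ko clones, at 12.37 and 12.41. Factor set and clone origin cannot be told apart there. The OSK wt clone was at 12.53. The difference between OCK ko and OSK ko clones was -0.40 ± 0.10 and missed the threshold (adjusted p = 0.0513). It was -0.31 without OCK ko clone 1 and -0.50 without OCK ko clone 2, fits in which the lone clone is assumed to vary like the other groups. It passed in both, as did many more of all genes than in the main fit. Of 16 alternatives 3 passed, with differences from -0.50 to -0.21 and adjusted p up to 0.303. The other probe sets gave -0.64 ± 0.21, -0.17 ± 0.11 and, for 1430529_at, 0.17 ± 0.15, and none of them passed. The dimmer probe set 1430529_at was lower in established clones than in early cultures (-0.50 ± 0.13, adjusted p = 0.00580) and higher in the partial clone than in established clones (0.45 ± 0.12, adjusted p = 0.0116).

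**Figure D3:**
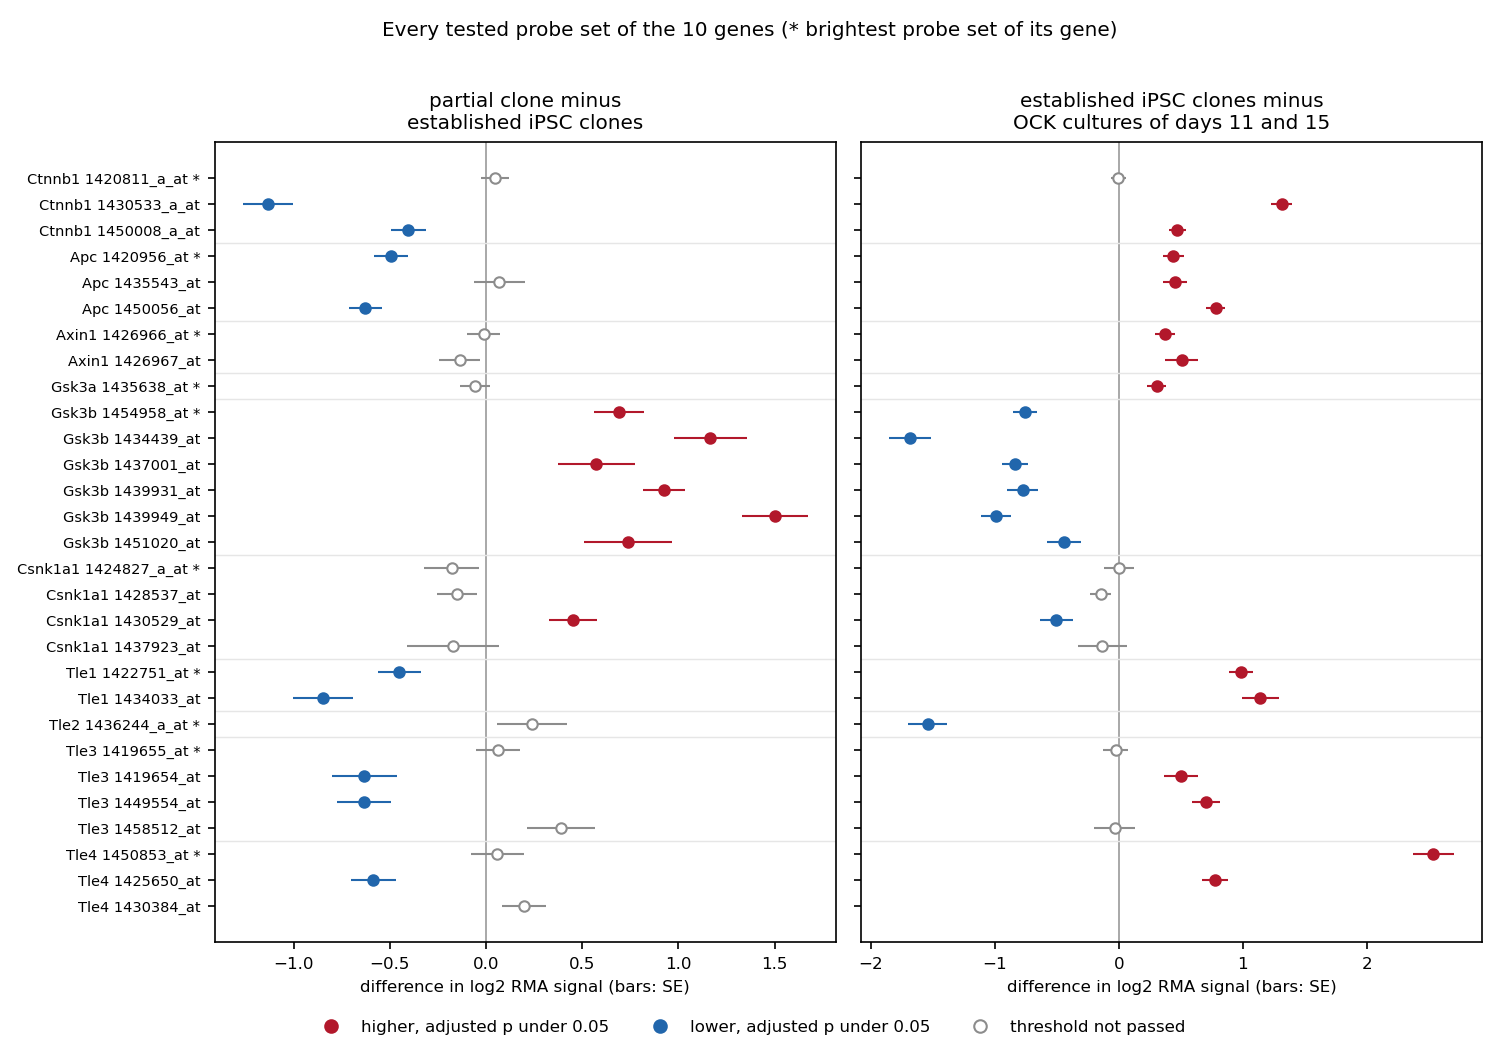
Differences in log2 RMA signal with SE for every tested probe set of the 10 genes, in the fit of all probe sets. The left panel is the partial clone minus the established clones and the right panel the established clones minus the OCK cultures of days 11 and 15. Filled points passed the threshold of 0.05 on the adjusted p. On the left 7 probe sets were higher and 9 lower of 29, on the right 14 higher and 8 lower of 28.

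Counted by probe set, 22 of 28 passed between established clones and early cultures, where 67.6% of all probe sets did. Between the partial and the established clones 16 of 29 passed, where 53.2% of all did. Both shares stand near those backgrounds. Over the days 2 of 27 rose (Tle4 1450853_at and Apc 1435543_at), where 30.5% of all probe sets changed. Between OCK ko and OSK ko clones 1 of 28 passed, where 7.57% of all did. In OSK ko against OSK wt clones 0 of 28 passed, where 0.31% did, and after siRNA 0 of 29, where 0.0639% did.

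Tle4 spanned the widest range of the 10 genes over the 18 arrays (3.19). It was at 8.50, 7.98, 9.43, 9.97 and 10.16 in ko cultures and at 8.65, 8.68, 9.28, 9.95 and 9.89 in wt cultures of days 11 to 26. Arrays of days 22 and 26 were above all arrays of the earlier days. The rise was 0.121 ± 0.021 per day, 1.82 over the 15 days (adjusted p = 0.00637). The call was lost without day 11 (0.157 per day, adjusted p = 0.0691) and in a line through the 5 day means (adjusted p = 0.0515). Without day 11, 0 of all 13374 genes passed, and in the line 424 of 13428, against 4921 of 13428 in the main fit. The pluripotent marker sum moved with it, at 1802, 1689, 5679, 10336 and 14254 in ko and at 1896, 2663, 4811, 7863 and 7224 in wt cultures.

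The clones were higher still. Tle4 was at 11.003, 10.996 and 11.15 on the partial arrays with siRNA A, siRNA B and control siRNA, at 10.59 and 11.03 in the OCK ko clones, at 11.18 and 11.17 in the OSK ko clones and at 10.99 in the OSK wt clone. All clone arrays were above all cultures. Established clones were 2.54 ± 0.17 above the early cultures (5.81-fold, adjusted p = 1.62e-07), and OCK ko clones were 2.57 ± 0.24 above ko cultures (5.94-fold, adjusted p = 0.000304). Averaging the 3 probe sets, of which only the brightest was above the floor in any culture, gave smaller values that still passed, 1.11 between established clones and early cultures and 0.040 per day. The partial and the established clones differed by 0.06 ± 0.14 (95% interval -0.25 to 0.37), although their pluripotent and fibroblast marker sums did not overlap. On a second probe set, 1425650_at, all 10 cultures were at the floor, the established clones were at 6.13 to 6.60, and the partial clone at 5.68 to 5.92 was lower than the established clones (-0.59 ± 0.12, adjusted p = 0.00203). The third, 1430384_at, was above the floor only on the partial arrays with siRNA B (5.77) and control siRNA (6.11).

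Tle1 was at 8.27, 7.85, 8.42, 9.14 and 8.27 in ko and at 7.91, 7.98, 8.61, 8.71 and 9.02 in wt cultures. It rose by 0.056 ± 0.019 per day (adjusted p = 0.0459), a call that was lost in 8 of 12 alternatives. On day 26 the ko culture was 0.75 below the wt culture and on day 22 it was 0.43 above. Tle1 was at 8.36, 8.48 and 8.77 on the partial arrays with siRNA A, siRNA B and control siRNA, at 9.12 and 9.07 in the OCK ko clones, at 8.96 and 8.85 in the OSK ko clones and at 8.93 in the OSK wt clone. Established clones were 0.99 ± 0.10 above early cultures (1.98-fold, adjusted p = 4.67e-06), and the partial clone differed from them by -0.45 ± 0.11 (adjusted p = 0.00627). The second Tle1 probe set passed in both comparisons and in these directions (1.14 ± 0.15 and -0.85 ± 0.16). Its change per day was 0.017 ± 0.015 and did not pass (adjusted p = 0.419).

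Tle2 ran against Tle1 and Tle4. It was at 6.05, 6.33 and 6.30 on the partial arrays with siRNA A, siRNA B and control siRNA, at the floor of 5.64 in both OCK ko clones, at 6.38 and 6.20 in the OSK ko clones and at 6.06 in the OSK wt clone. Cultures were at 7.70, 7.42, 7.71, 6.69 and 7.12 in ko and at 7.46, 7.53, 7.77, 7.19 and 7.47 in wt. Every clone lay below every culture. Established clones were at least 2.91-fold lower than early cultures (fitted difference -1.54 ± 0.16, adjusted p = 5.59e-06), a bound because 2 of the 5 clones are at the floor. Against the cultures of days 11 and 15 the OCK ko clones were at least 3.69-fold lower, since their own level is only bounded by the floor. The change per day in the cultures was -0.028 ± 0.017 (adjusted p = 0.209).

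Tle2 was also the only one of the 10 genes to pass between the OCK ko and the OSK ko clones, where 10.7% of all genes passed and 5.8% were lower. It was at least 1.57-fold lower in OCK ko clones (fitted difference -0.65 ± 0.12, adjusted p = 0.0282). The call was lost without either OSK ko clone (fitted differences -0.56 and -0.73), without either Tcf3 siRNA array and with the 5 iPSC arrays alone (adjusted p = 0.0681). In each of these fits fewer of all genes passed than in the main fit, 294 of 12905 in the last. Factor set and clone origin cannot be told apart in this comparison.

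Tle3 passed in neither stage comparison on its brightest probe set, which was at 9.70 to 10.14 in established clones and 9.85 to 10.02 in early cultures (difference -0.02 ± 0.10). Probe sets 1419654_at and 1449554_at were higher in established clones (0.50 ± 0.14, adjusted p = 0.00747, and 0.71 ± 0.11, adjusted p = 0.000178). Both were lower in the partial clone than in the established clones (-0.63 ± 0.17 and -0.63 ± 0.14), and 1458512_at passed in neither comparison. With the 4 probe sets averaged, the stage difference was 0.29 (adjusted p = 0.0459), opposite in sign to that of the brightest probe set.

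Lowering Tcf3 left the 10 genes without a call. In ko against wt cultures with day as a block 0 of 10 passed, where 0% of all 13428 genes did (limma, 452 genes at an unadjusted p under 0.05, none of them among the 10). Tcf7l1 itself, lower in ko on every day, did not pass in that fit either, so the missing calls there are not particular to the 10 genes. In OSK ko against OSK wt clones 0 of 10 passed, against 0.687% of all genes, and after Tcf3 siRNA 0 of 10, against 0.111%. At an unadjusted p under 0.05 the OSK clones gave 1 of the 10 (Tle3) and the siRNA 1 (Tle1). The ko and wt slopes over the days did not separate either, with 0 of 10 past the threshold against 0% of all genes (208 genes at an unadjusted p under 0.05, 0 of the 10).

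The intervals cover spread between these arrays and not between repeats. With a single OSK wt clone, a single control siRNA array and unrepeated cultures, they do not bound an effect of Tcf3 loss. In the cultures the widest were those of Tle1 (-0.06, 95% interval -0.46 to 0.35) and Tle4 (-0.08, -0.41 to 0.25). Ctnnb1 differed by 0.01 (-0.12 to 0.14), Apc by 0.05 (-0.07 to 0.16) and Gsk3b by 0.00 (-0.16 to 0.16). In the OSK clones Ctnnb1 differed by -0.04 (-0.30 to 0.21) and Gsk3b by 0.14 (-0.38 to 0.66). After siRNA Ctnnb1 differed by -0.03 (-0.28 to 0.23) and Gsk3b by -0.28 (-0.80 to 0.23), with siRNA A at 10.50 and siRNA B at 10.79 against 10.93.

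**Figure D4:**
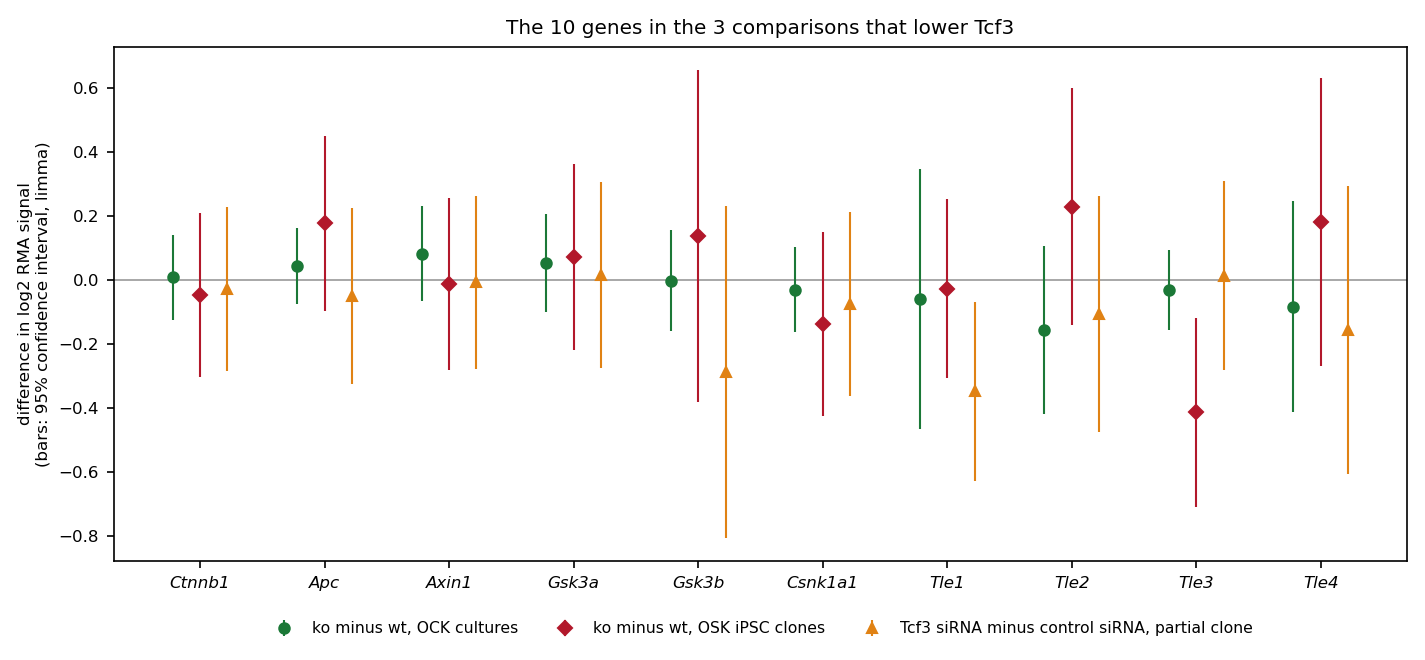
Difference in log2 RMA signal with its 95% confidence interval for the brightest probe set of each gene in the 3 comparisons that lower Tcf3. Circles are ko minus wt cultures, diamonds OSK ko minus OSK wt clones and triangles Tcf3 siRNA minus control siRNA in the partial clone. Of the 30 intervals, 28 include 0, and those of Tle3 in the OSK clones and Tle1 after siRNA do not; none passed after adjustment.

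Tle3 in the OSK clones came closest. It was at 9.77 and 9.70 in the OSK ko clones against 10.14 in the OSK wt clone, a difference of -0.41 ± 0.12 (adjusted p = 0.228). The 3 other Tle3 probe sets were also lower in both OSK ko clones, by -0.71, -0.45 and -0.55, with adjusted p between 0.172 and 0.360. The OCK ko clones enter the fit only through its spread. Without either of them the difference stayed at -0.41 and passed, as did many more of all genes than in the main fit. It passed in none of the 12 other alternatives. With a single wt array the clone and its genotype cannot be told apart. The OCK ko clones, of the other factor set, were at 10.05 and 9.86. In ko against wt cultures Tle3 differed by -0.03 ± 0.05 and after siRNA by 0.01 ± 0.12.

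Tle1 after siRNA was at 8.36 (A) and 8.48 (B) against 8.77 in the control, a difference of -0.35 ± 0.11 (adjusted p = 0.305). The second Tle1 probe set was at 7.73 and 7.55 against 7.66 and gave -0.02 ± 0.26. In OSK ko against OSK wt clones Tle1 differed by -0.03 ± 0.11.

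The wider pathway was followed in 6 lists. Of their genes 55 were tested between established clones and early cultures, with 28 higher and 12 lower, where 73.3% of all genes passed (40.6% higher, 32.7% lower), so the lists stand near the background. The median difference of the lists was 0.23 against 0.08 over all genes. Among further parts of the destruction complex 9 of 15 were higher and 3 lower. Gskip, which binds Gsk3b, was -1.57 ± 0.08, and the phosphatase subunits Ppp2r5c and Ppp2r1b were 0.98 ± 0.09 and 0.95 ± 0.07. Of the degradation machinery 4 of 9 were higher and 0 lower, led by the tankyrase Tnks2 (1.03 ± 0.07), which marks axin for destruction, and Btrc (0.81 ± 0.10), the F-box protein that recognises phosphorylated beta-catenin.

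Of 8 upstream parts 3 were higher and 4 lower, among them Dvl2 (1.70 ± 0.11), which relays the receptor signal to axin, and Kremen1 (-1.42 ± 0.09), a receptor for Dkk proteins. Of 11 nuclear partners 6 were higher and 2 lower, and those lower were Tcf7l2 (-1.94 ± 0.19) and Bcl9l (-1.73 ± 0.12). Among 8 Groucho relatives and partners 4 were higher, with Sin3a at 2.04 ± 0.07, Hdac1 at 1.63 ± 0.08 and Ctbp2 at 1.73 ± 0.14, and 2 lower. Of 4 adhesion partners Cdh1 (2.73 ± 0.13) and Ctnna1 (0.87 ± 0.07) were higher and Cdh2 (-3.06 ± 0.32) lower.

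In the partial clone 12 of the 55 were higher and 24 lower than in established clones, where 24.7% of all genes were higher and 33.5% lower, with a median of -0.21 against -0.05 over all genes. Btrc (-2.31 ± 0.13), Dvl2 (-2.23 ± 0.13) and Hdac1 (-1.42 ± 0.09) were the largest falls among the genes named by the rule, and Cdh2 (2.33 ± 0.36) the largest rise. Over the culture days 11 of 54 rose and 7 fell, where 18% of all genes rose and 18.7% fell. Ctbp2 (0.097 ± 0.015 per day), Hdac1 (0.039 ± 0.009) and Hdac2 (0.054 ± 0.016), corepressor partners, rose along with Tle4 and Tle1, as did Cdh1 (0.193 ± 0.032).

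In the Tcf3 comparisons the lists gave few calls, as did all genes. In ko against wt cultures 0 of 54 passed, where 0% of all genes did. In OSK ko against OSK wt clones 1 of 55 passed, where 0.687% did, and it was Tcf7l1 itself (-1.25 ± 0.11, adjusted p = 0.0215). The feedback scaffold Axin2 was 1.13 ± 0.16 above OSK wt and missed the threshold (adjusted p = 0.0521). After siRNA 1 of 53 passed, where 0.111% of all genes did, again Tcf7l1 (-1.15 ± 0.11, adjusted p = 0.0495). Between OCK ko and OSK ko clones 1 of 55 was higher (Amer1) and 4 lower, where 10.7% of all genes passed, among them Lef1 (-1.53 ± 0.14, adjusted p = 0.00538), Axin2 (-0.66 ± 0.13, adjusted p = 0.0299) and Dvl1 (-0.55 ± 0.10, adjusted p = 0.0224).

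As a description over the 18 arrays, the genes whose pattern was most like that of Tle4 among 10283 above the floor everywhere were Ankrd13c (Pearson r = 0.980), Gstcd (0.977) and Snhg4 (0.977). For the brightest Ctnnb1 probe set, whose range was 0.25, the highest correlations were 0.764 (Npepps), 0.727 (Armh4) and 0.726 (Gprc5d). The arrays share stage, clone and hybridisation, so these values carry no test.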

How the data were processed

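RNA from 18 mouse samples was measured on 1 Affymetrix array each. The deposited values are log2 signals that the authors made by RMA, per the submitters' processing notes, with no version given. The values show a floor at 5.64 (50 on the linear scale), which 44.9% to 46.6% of values per array reach. Depth does not apply to arrays, whose number limits the precision. Each gene was represented by its probe set with the highest mean over all 18 arrays, and every probe set was also fitted on its own. Differences were tested with limma 3.58.1 in R 4.3.3 over all genes above the floor on at least 1 compared array, with Benjamini-Hochberg adjustment over all of them and a threshold of 0.05 on the adjusted p. Genes with an array at the floor received at least the prior variance. Cultures were compared with day as a block, and slopes were fitted per genotype. Samples were grouped by their labels. The fit was tested on simulated data. In each of 6 pathway lists up to 3 genes per comparison were named, by smallest adjusted p. The members, lists and tests were chosen with earlier results of these data known. Alternatives were probe-set averaging, every probe set, quantile normalization, median centring, plain eBayes, only genes above the floor, and leaving out each replicate or day. Leaving out days for single probe sets was chosen after seeing the data.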

Additional observations from a re-analysis of the deposited data

Results flagged for a closer look

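One probe set of Gsk3b, 1439931_at, was higher in both OSK ko clones than in the OSK wt clone, and lower in ko than in wt cultures on every day. It was at 5.96 and 6.16 in the OSK ko clones against 5.79 in the OSK wt clone, a difference of 0.27. In the cultures of days 11 to 26 it was at 6.67, 6.63, 7.02, 6.64 and 7.02 in ko against 7.13, 6.80, 7.23, 6.86 and 7.24 in wt, a mean difference of -0.26. Neither difference passed after adjustment in limma's fit of every probe set, and the difference between them was not tested. The OSK values lie near the floor of 5.64, and a single wt clone cannot tell clone from genotype. The brightest Gsk3b probe set differed by 0.14 in the OSK clones and by -0.0003 in the cultures. No array of a group of 5 stood apart from its group by Dixon's criterion in the 54 groups of values examined. These groups are the ko or the wt cultures over the days and not repeats. A trend over days can hide an odd array there, so the result says little of outlying arrays.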

How the results depend on the processing

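Counts of the 10 genes past the threshold moved by over 1.5 times in 3 comparisons and by less in both stage comparisons. For the change per day, 2 passed, against 1 with probe sets averaged, with every probe set fitted, with median centring and with plain eBayes, and 0 in a line through the day means. Leaving out a day gave 0 to 2. Of all genes, 4921 of 13428 passed in the main fit, 424 in the line through the day means and 0 of 13374 without day 11. Between OSK ko and OSK wt clones 0 passed, and Tle3 was added without either OCK ko clone, fits in which many more of all genes passed. Between OCK ko and OSK ko clones, 1 passed, against 2 after quantile normalization and 0 with plain eBayes, with only genes above the floor or with the 5 iPSC arrays alone. Of all genes 1377 of 12905 passed in the main fit, 1345 after quantile normalization and 844 with plain eBayes. With only genes above the floor 1125 of 10808 passed, and with the 5 iPSC arrays alone 294 of 12905. Leaving out an array moved the count of the 10 genes and that of all genes widely. Between the partial and the established clones 3 passed, against 4 with probe sets averaged (Ctnnb1 added) and 4 against the 2 OCK ko clones alone (Tle2 added, adjusted p = 0.00905). Between established clones and early cultures 7 passed, against 9 with probe sets averaged (Ctnnb1 and Tle3 added), 6 with only genes above the floor (Tle2 not tested) and 5 with OCK ko clones against ko cultures (without Apc and Gsk3a). With clone number as a replicate block the count was 1 (Tle2, adjusted p = 0.0371), and the labels do not say that equal numbers pair the clones. With probe sets averaged, Ctnnb1 was -0.50 between partial and established clones and 0.60 between established clones and early cultures, and Tle3 was 0.29 in the second of these, each opposite in sign to its brightest probe set. The differences of those brightest probe sets were smaller than their SE, so their sign is not settled. Tle4 fell to 1.11 between established clones and early cultures and to 0.040 per day. The averaging itself brings in the other probe sets. Median centring moved the median of all genes by -0.11 between established clones and early cultures, and the share of higher calls between OCK ko and OSK ko clones to 57.5% against 45.7%. Of the values of single genes under the alternatives, 1059 were the same, 19 weaker, 8 stronger, 21 moved and 3 reversed. The same means an unchanged side of the threshold, with the direction kept or a sign change within the SE of the main fit. The floor limits what can be said of Tle2 in the OCK ko clones and of the dim Tle4 probe sets, and single arrays limit the OSK wt and control siRNA groups.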
